A study of Mus musculus with 9 samples.

Results

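The loci described here are transcribed stretches of the mouse genome that carry no gene identifier in the table of a MIN6 cell study, which lists them under a running number. A locus is called here by that number, so locus 87 is the row that the table numbers 87 among its unannotated rows. MIN6 is a mouse insulinoma line that secretes insulin and serves as a model of the pancreatic beta cell. Members were chosen by their FPKM, a fragment level scaled for transcript length and library size: 3 or more of the 9 libraries had to reach an FPKM of 1. The table of 54876 rows holds 344 unannotated ones, and 214 of these met this rule. They are 1.74% of the 12300 rows of all kinds that met it. The rule sets a minimum on the levels themselves, so a level is a description and not a finding.

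The cells, given as strain C57BL/6, were kept for 24 h in 1 of 3 media. Low arginine medium held 0.1 times, standard medium 1 times and high arginine medium 20 times the usual concentration of this amino acid. Each medium had 3 libraries made from total RNA. A single line was studied, and the labels do not say whether the 3 libraries of a group came from separate cultures. A p-value here therefore speaks only of library to library spread, which may be technical. Reads assigned to table rows numbered 21550637 to 26300872 per library. Levels of the beta cell genes Ins1, Ins2, Iapp, Pdx1, Nkx6-1, Mafa, G6pc2 and Slc30a8 were above the minimum, whereas Slc2a2, the glucose transporter of mature mouse beta cells, averaged 0.0103 FPKM. Of the markers of other islet cells, Sst averaged 7097, Ttr 690 and Ppy 49.4 FPKM. Ptprc, Hbb-bs, Cdh5, Prss1 and Krt19 were listed at 0 in all 9 libraries, and the highest of 5 stromal markers averaged 0.0612 FPKM.

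Reads can fall outside annotated genes for several reasons. Much of the mouse genome derives from endogenous retroviruses, the inherited copies of old infections, whose intact forms encode a gag core protein, a protease, reverse transcriptase with RNase H, integrase and sometimes an envelope protein, env. LINE-1 (L1) elements copy themselves through RNA with their own reverse transcriptase. Long noncoding RNAs form another class, and many start back to back with the promoter of a coding gene. Finally, the ends of known genes are often longer than annotated. Repeat copies resemble each other closely, so reads from a retroviral or L1 locus may have been divided among copies, and the position given for such a locus is uncertain to that extent.

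For 20 of the 214 loci, a RefSeq gene model on the same strand starts within 150 bases of the end of the row that is its start by strand, and only 1 of these 20 symbols, Gucy1a2, is itself a row of the table. On the same strand, 47 of the 214 loci overlap a RefSeq gene model of any start. The RefSeq window (GRCm38.p6, 250 bases before to 50 after the RefSeq start, 5′ to 3′) is printed for 3 of these loci, the called ones with the largest difference in low arginine. Capitals mark the bases inside the span of the deposited row. The windows are chrX:103027216-103027515, minus strand for the first line, chr1:92379307-92379606, plus strand for the second and chr10:38059091-38059390, plus strand for the third.
Locus 340, RefSeq Gm39529: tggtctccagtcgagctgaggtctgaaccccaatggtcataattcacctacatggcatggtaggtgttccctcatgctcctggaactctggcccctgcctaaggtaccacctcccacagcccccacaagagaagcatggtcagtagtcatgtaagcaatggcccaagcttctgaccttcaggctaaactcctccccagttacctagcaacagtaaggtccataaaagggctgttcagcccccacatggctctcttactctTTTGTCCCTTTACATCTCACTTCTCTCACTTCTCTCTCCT
Locus 5, RefSeq Gm35992: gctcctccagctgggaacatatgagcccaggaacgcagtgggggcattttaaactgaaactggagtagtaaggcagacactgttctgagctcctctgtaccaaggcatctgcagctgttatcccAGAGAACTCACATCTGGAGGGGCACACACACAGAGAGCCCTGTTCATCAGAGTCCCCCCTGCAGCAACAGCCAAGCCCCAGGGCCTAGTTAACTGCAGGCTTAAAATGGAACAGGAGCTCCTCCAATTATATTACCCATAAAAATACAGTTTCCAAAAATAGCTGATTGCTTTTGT
Locus 37, RefSeq Gm46220: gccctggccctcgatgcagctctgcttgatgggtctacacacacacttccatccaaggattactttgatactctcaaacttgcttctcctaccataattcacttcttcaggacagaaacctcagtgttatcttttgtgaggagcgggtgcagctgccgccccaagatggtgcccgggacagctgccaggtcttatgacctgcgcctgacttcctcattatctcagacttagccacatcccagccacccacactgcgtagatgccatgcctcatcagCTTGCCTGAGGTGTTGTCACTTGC
The starts lay 10, 126 and 26 bases apart in this order. The windows hold 51.7%, 49.3% and 53.0% G and C, with 1, 1 and 6 CpG dinucleotides.

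Among the 20 windows, the TATA box letters TATAAA were found on the transcript strand in 0, against 8.32% of 32851 RefSeq promoter windows of the same 300 bases. TGATGCAA, a composite site of the amino acid response factor ATF4, was found on either strand in 0, against 0.895% of all. CACGTG, the E-box bound by MYC and ChREBP families, was in 1 window, that of Gucy1a2, against 7.15% of all. CCAAT was in 7 windows on either strand, against 37.4% of all, and those of locus 340 and locus 5 were among them. No search was made outside these windows.

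The loci were short. The deposited length ran from 208 to 11702 bases with a median of 1263.5, close to the 1195 bases of the 185 lincRNA rows that met the same rule and under the 4426 bases of protein-coding rows. In 85 loci the length equalled the span on the genome, a single block, and in 129 it was shorter, so that the row is made of separate blocks. Spans ran from 237 to 112921 bases with a median of 3222.5. The plus strand held 114 loci and the minus strand 100. Chromosome 7 had the most, 16, and chromosomes 1, 2, 4 and X had 15 each, while 6 lay on scaffolds listed apart from the chromosomes.

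About as many loci lay near an annotated gene as far from any. The nearest annotated row was within 5 kb for 104 of the 214 loci and within 1 kb for 71. The median distance was 5612 bases. Of the 12086 annotated rows that met the same rule, 82.8% lay within 5 kb of another annotated row. At the far end 24 loci were more than 50 kb away, and locus 171 on chromosome 2 was the most remote at 321936 bases from Gm13464. The values of locus 171 were 0.0936, 0.535 and 0 FPKM with low, 0.511, 0.474 and 0.437 with standard and 1.16, 1.39 and 1.33 with high arginine, from 0 to 13 reads, so the high arginine libraries alone passed the minimum. By side, 72 loci lay head to head with their nearest gene, the arrangement of divergent transcripts from a shared promoter region, and 42 of these were within 1 kb at a median distance of 93.5 bases. A further 65 lay upstream of the gene on its strand, 44 tail to tail and 31 downstream on its strand, where a longer transcript of the gene itself would also fall. Only locus 19 overlapped an annotated row, Mia3, on the opposite strand. The scaffold with locus 325 had no annotated row.

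**Figure D1:**
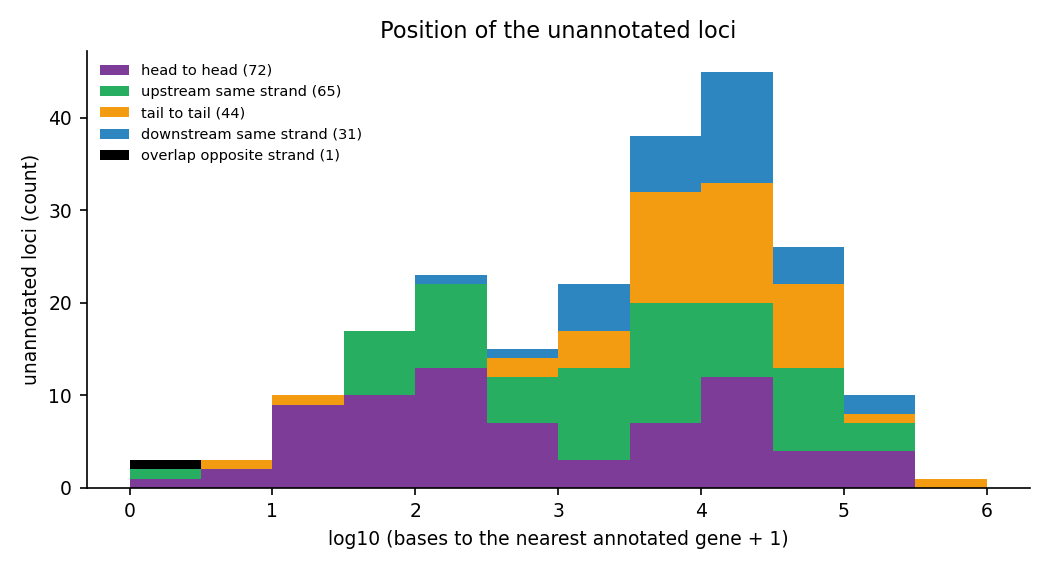
Distance from each of 213 unannotated loci to the nearest annotated gene (log10 of bases + 1, x axis) against the number of loci (y axis), coloured by relative position with the number of loci in brackets. Head to head loci fill most of the bars under 1 kb, where 42 of them lie, whereas tail to tail and downstream loci lie mostly farther out.

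Of the loci, 16 overlapped another unannotated row, and 8 of them formed 4 pairs among themselves, each on opposite strands. The library kit keeps strand, but whether the counting used it is not known from the sources used here, so the reads of such a pair cannot be told apart with certainty. An example is the pair locus 178 and locus 191 on chromosome 2, whose standard arginine values were 15.4, 14.5 and 14.5 FPKM and 19.8, 20.3 and 21.5 FPKM.

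Levels were mostly low. The mean over 9 libraries had a median of 1.73 FPKM and ran from 0.659 to 169, against a median of 7.19 for annotated rows that met the rule, 1.89 for lincRNA and 1.61 for antisense rows. In 102 loci all 9 libraries reached 1 FPKM, and in 24 exactly 3 did. Just inside the rule, the third highest library of locus 229, locus 140 and locus 130 was 1.00, 1.01 and 1.01 FPKM. Just outside it, that of locus 233, locus 309 and locus 215 was 0.997, 0.997 and 0.971. Of the 130 unannotated rows left out, 34 were at 0 throughout.

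The deposited description lists Pfam protein domains for 49 of the 214 loci. Retroviral domains were named in 33, with an env domain in 15 of them and without in 18. Typical L1 domains were named in 5 and some other domain in 11, and the remaining 165 had none. These classes were drawn up after the table was seen. The median level of the 33 retroviral loci was 4.92 FPKM.

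The loci with the highest mean level were locus 92 (169 FPKM, chr13:87352814-87353958, minus strand, no domain), locus 145 (146 FPKM, chr17:34996723-35000968, minus strand, env), locus 87 (91.4 FPKM, chr13:87668216-87672863, plus strand, env), locus 271 (79.5 FPKM, chr7:60766819-60770283, plus strand, gag and protease) and locus 33 (61.5 FPKM, chr1:170941837-170942484, minus strand, no domain). Coordinates are those of the deposited table and are on GRCm38. Locus 145 begins 18 bases from Vars, the valyl-tRNA synthetase gene, on the other strand.

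Low arginine against standard arginine asks what a short supply of this amino acid does to the loci. Of all 12300 rows tested, 62.2% changed, 30.3% higher and 31.9% lower. Of the 214 loci, 88 (41.1%) were lower and 30 (14.02%) higher in low arginine, 55.1% in all, so the calls leaned downward while those of all rows were nearly even. The median difference was -0.22 on the log2(FPKM + 1) scale, against 0.00 over all rows. Among called loci the median fall was -0.67 and the median rise 0.59, and 21 falls and 7 rises were at least 2-fold on this scale. Of all 12300 rows, 403 falls and 236 rises were. Among other rows of low level, lincRNA rows were higher in 24.3% and lower in 24.3%, antisense rows in 26.1% and 20.3%, and processed pseudogene rows in 14.7% and 28.8%. The differences between these shares were not tested. In RNA from a whole culture, fewer cells with a transcript and less transcript per cell cannot be told apart. With values scaled to TPM the median of all rows moved to 0.115 and that of the loci to -0.20, with 37 loci higher and 78 lower. Of all rows, 4843 were then higher and 3018 lower, against 3723 and 3923 as deposited.

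Markers of other islet cells moved with the groups. The 3 delta and PP cell markers summed to 8718 to 11313 FPKM in low, 5434 to 6207 in standard and 5721 to 5913 in high arginine, and 2 of 3 met the FPKM rule. The alpha cell markers Gcg, Ttr and Irx2 summed to 260.3 to 341, 890.3 to 991 and 892 to 901 FPKM. Their part in the differences of the loci was not tested. Markers of blood, endothelium, stroma and exocrine pancreas, 15 genes, summed to under 0.538 FPKM per class in every library.

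**Figure D2:**
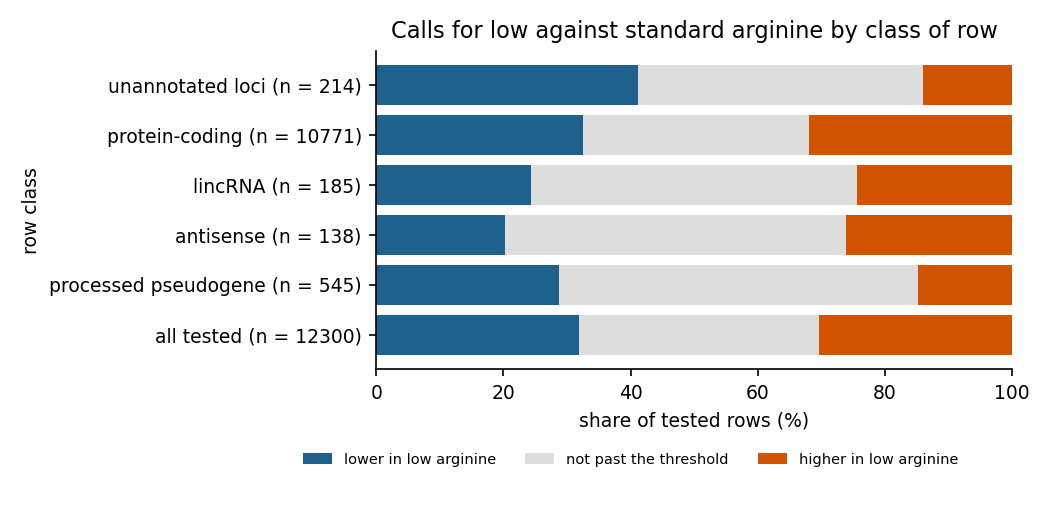
Share of rows (x axis, percent) lower in low arginine (blue), not past the threshold (grey) or higher (orange), for each class of row (y axis, n tested). The unannotated loci have 41.1% lower and 14.02% higher calls, where protein-coding rows have 32.5% and 32.0%.

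A locus could meet the FPKM minimum through only the groups where it was higher. The rule itself then favours a difference, so the values of such a locus are given below as a description with no test. Counts over all loci, by level and by domain class still include such loci. The 5 loci that reached 1 FPKM only in low arginine libraries were all called higher there, and of 35 that reached it only in standard and high arginine libraries 27 were called lower and 0 higher. Among the 160 loci with at least 1 library at 1 FPKM in every group, 60 (37.5%) were lower and 20 (12.5%) higher. Of all 12300 rows, 31.9% were lower and 30.3% higher. The condition on every group was not applied to those rows. By level, loci with a mean of at least 10 FPKM, 24 in number, had 16 falls and 2 rises, with a median difference of -0.66. Of all tested rows at that level, 41.7% were lower and 28.8% higher. Below 2 FPKM, 41 of 123 loci fell and 16 rose, where 22.3% of all rows at that level were lower and 22.6% higher.

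Of the 33 retroviral loci 19 fell and 2 rose, with a median of -0.40. Locus 86, described below, is among them and met the FPKM minimum only through standard and high arginine libraries. The rule favours a fall for such a locus, and a class count without such loci was not made. Of all tested rows, 31.9% were lower and 30.3% higher. By level these shares were 22.3% and 22.6% under 2 FPKM and 24.0% and 33.5% at 2 to 5. They were 29.3% and 35.4% at 5 to 10, and 41.7% and 28.8% at 10 and over. The retroviral loci spread over these levels. No test of this class against other rows was made. Differences given with an SE are low minus standard arginine on the log2(FPKM + 1) scale unless another pair of groups is named. The locus with the largest fall was locus 87, an env locus of 3065 bases on chromosome 13, 110107 bases from the nearest annotated row, Gm21232. It stood at 8.73, 9.89 and 10.4 FPKM with low, 144, 169.7 and 165 with standard and 105, 101 and 108 with high arginine. The low arginine libraries lay far below all others, and the groups did not overlap. Its mean was 9.66 ± 0.836 FPKM in low and 159.8 ± 13.6 in standard arginine (SD, n = 3), 16.5-fold lower, and the log2 difference was -3.91 (SE 0.08, adjusted p = 2.8e-10). The library counts behind these values were 703 to 11389 reads.

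On the same chromosome, 314257 bases away, locus 92, with no domain, stood at 106, 111 and 97.2 FPKM with low, 206, 209.5 and 209 with standard and 183, 198 and 199 with high arginine. Again the low arginine libraries were the lowest, with means of 105 ± 7.08 and 208 ± 1.92 FPKM, a difference of -0.99 (SE 0.06, adjusted p = 3.4e-07). The gag locus 271 on chromosome 7 gave 41.6, 45.8 and 40.7 FPKM with low, 98.3, 95 and 98.1 with standard and 97.2, 96.4 and 103 with high arginine. Standard and high arginine libraries were alike in range and the low arginine ones below them, with a difference of -1.17 (SE 0.06, adjusted p = 8.0e-08). Upstream of it on the same strand, 3018 bases away, locus 270 gave 2.86, 3.07 and 3.19 FPKM with low, 6.11, 6.41 and 5.53 with standard and 5.84, 7.16 and 6.53 with high arginine, and its difference was -0.80 (SE 0.08, adjusted p = 8.7e-06).

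**Figure D3:**
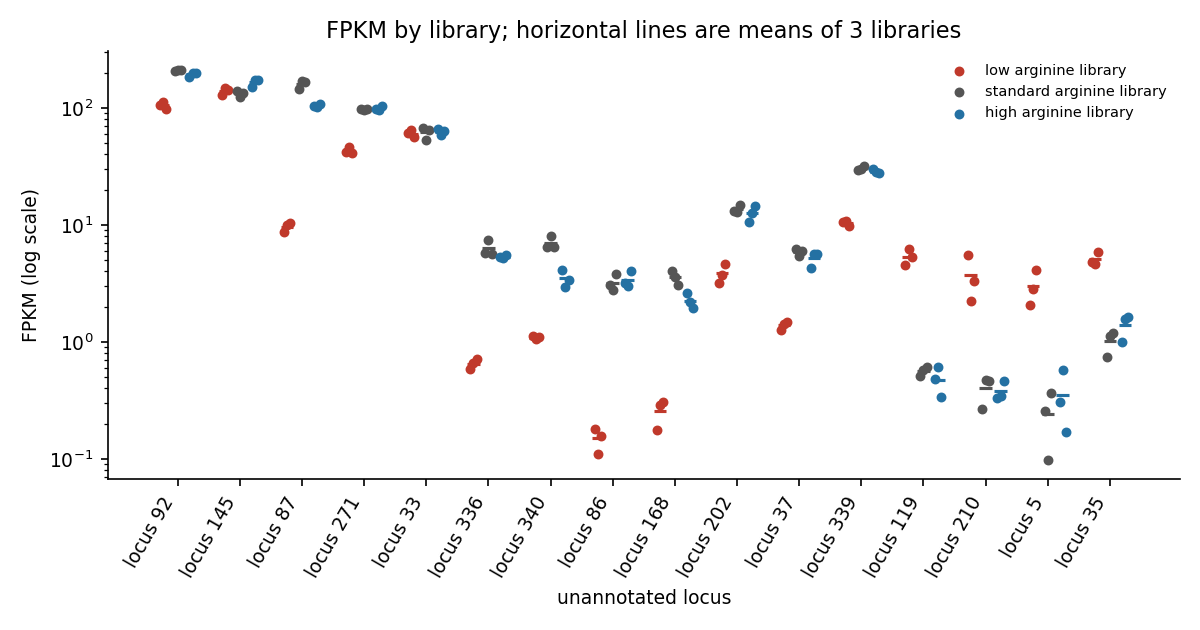
FPKM on a log axis (y) in each of the 9 libraries for 16 unannotated loci (x), coloured by arginine group, with a line at the mean of 3 libraries. The low arginine points of locus 87, locus 336 and locus 86 lie far below the others, those of locus 119, locus 210 and locus 5 far above, and those of locus 145 and locus 33 among them.

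Other retroviral loci were at lower levels. The integrase locus 86 on chromosome 13 stood at 0.18, 0.111 and 0.158 FPKM with low, 3.03, 2.75 and 3.8 with standard and 3.21, 3.02 and 4.0 with high arginine. It met the FPKM minimum only through standard and high arginine libraries, and its low arginine values came from as few as 11 reads. The env locus 202 on chromosome 3 stood at 3.19, 3.75 and 4.6 FPKM with low, 13.1, 13 and 14.9 with standard and 10.5, 12.5 and 14.5 with high arginine, a difference of -1.60 (SE 0.12, adjusted p = 1.5e-06). Both were lower in each low arginine library than in any standard one. The gag locus 249 on chromosome 5 fell by less, at 13.2, 14.7 and 12.6 FPKM with low, 21.4, 21.9 and 20.7 with standard and 20.1, 21 and 22.2 with high arginine and a difference of -0.63 (SE 0.06, adjusted p = 1.4e-05).

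Not all retroviral loci fell. The highest env locus, locus 145, stood at 128, 149 and 142 FPKM with low, 139, 124 and 135 with standard and 149.9, 174 and 171 with high arginine, and its low and standard groups overlapped (0.07, SE 0.08, adjusted p = 0.46). Under quantile normalization it was called higher in low arginine, at 0.30. The reverse transcriptase locus 34, on chromosome 1 and 2433 bases from locus 33 on the same strand, stood at 33.1, 35.3 and 29.8 FPKM with low, 36.2, 30.4 and 35.5 with standard and 37.4, 32.9 and 32.1 with high arginine. Both it (-0.05, SE 0.09, adjusted p = 0.62) and locus 33 (-0.03, SE 0.10, adjusted p = 0.82) had overlapping groups, with all 9 libraries of locus 33 between 52.7 and 67.8 FPKM. Locus 24 on chromosome 1, without a domain, was likewise between 47.6 and 57.3 FPKM in all libraries (-0.12, SE 0.06, adjusted p = 0.13).

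Rises among retroviral loci were 2. Locus 90 on chromosome 13, with env and integrase domains, stood at 12.8, 6.4 and 8.75 FPKM with low, 2.9, 3.33 and 3.7 with standard and 2.1, 1.91 and 2.35 with high arginine. Every low arginine library was above every other, though they differed from each other by a wide margin, and the difference was 1.22 (SE 0.18, adjusted p = 1.7e-04). Its nearest gene, Gmnn, which encodes the replication inhibitor geminin, lies downstream on the same strand and fell (-0.53, SE 0.08, adjusted p = 1.3e-04). The longest locus, locus 211 on chromosome 3, has 11702 bases and names protease, reverse transcriptase, RNase H, integrase and env domains. It stood at 32.6, 25.2 and 28.3 FPKM with low, 20.6, 17.7 and 23.8 with standard and 20.6, 20.8 and 23.2 with high arginine, slightly higher in low arginine (0.45, SE 0.11, adjusted p = 0.0047).

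The domain text separates 2 families of envelope, whose calls are given apart. Of 8 loci with the Pfam family called Retroviral envelope protein, 6 fell and 2 rose in low arginine, with a median of -0.77. Among them locus 95 also names L1 domains and is counted in that class. Of 8 with the family called ENV polyprotein, 2 fell, locus 87 and locus 1, and 6 did not pass the threshold, with a median of 0.03. This split was noticed after the values were seen and was not tested. Loci that name only other retroviral domains fell in 12 of 18 cases and rose in 0, with a median of -0.55. This count includes locus 86, for which the FPKM rule itself favours a fall. The shares over all tested rows were 31.9% lower and 30.3% higher. Summed over the 33 retroviral loci, the level was 358 to 379 FPKM in the low, 610.0 to 641 in the standard and 565 to 612 in the high arginine libraries. Without locus 87 these ranges became 349 to 369.5, 440.2 to 475 and 461 to 504, still with no overlap between low and standard libraries.

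**Figure D4:**
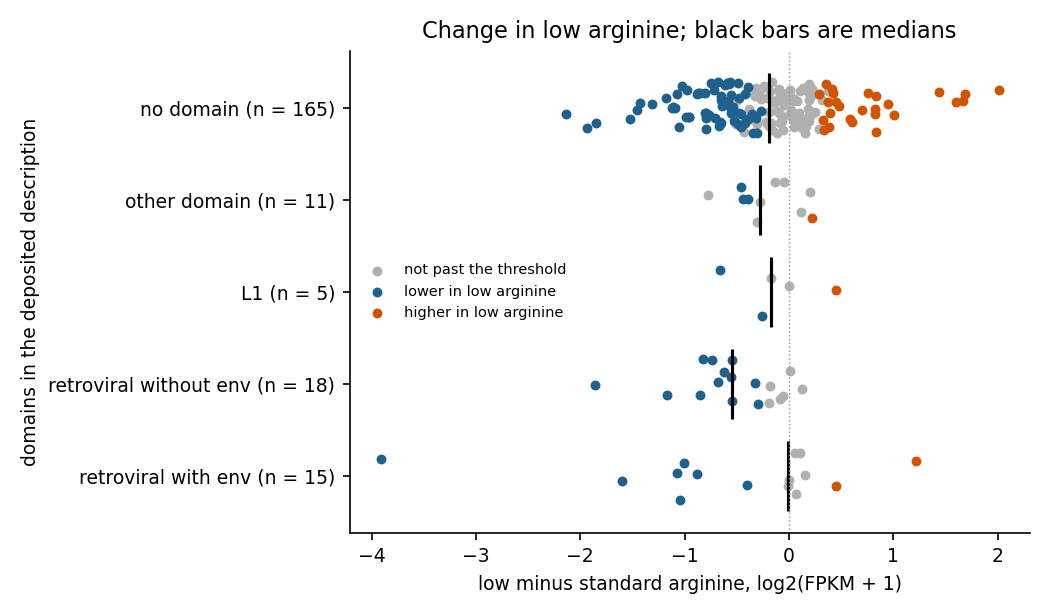
Difference between low and standard arginine in log2(FPKM + 1) (x axis) for each of the 214 loci, arranged by the domains in the deposited description (y axis, n loci) and coloured by call, with black bars at the medians. Retroviral loci without env lie mostly left of 0, and locus 87, at -3.91, is the leftmost point of the env class.

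The 5 L1 loci did not move together. Of them locus 81, 23 bases head to head with the transcription factor gene Sp4, rose in low arginine, at 2.16, 2.46 and 1.98 FPKM with low, 1.24, 1.49 and 1.28 with standard and 0.915, 1.21 and 1.29 with high arginine (0.45, SE 0.10, adjusted p = 0.0019). Locus 332, 3 bases head to head with the splicing factor gene Zrsr2, fell from 1.61, 1.25 and 1.76 FPKM in standard to 1.31, 1.05 and 1.00 in low arginine (-0.26, SE 0.10, adjusted p = 0.035), a call lost without low replicate 2, low replicate 3, standard replicate 1 or standard replicate 3. It was also lost with no filter on low values, TPM scaling, totals of rebuilt reads or only the 2 groups fitted. The L1 locus of highest mean level, locus 51, had overlapping groups (0.00, SE 0.09, adjusted p = 0.98).

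Of the 11 loci with other domains 3 fell and 1 rose, where 31.9% of all tested rows were lower and 30.3% higher. The most abundant, locus 325, names ubiquitin and ribosomal protein S27a domains and lies on a scaffold. It stood at 7.93, 14.3 and 37.2 FPKM with low, 34.6, 35.4 and 19.2 with standard and 4.03, 40.9 and 47 with high arginine, a spread within groups that left the difference undetermined (-0.77, SE 0.77, adjusted p = 0.41). Locus 148 names domains of ribosomal protein SA and gave 19.4, 16 and 17.1 FPKM with low, 25, 26.5 and 21.8 with standard and 25.9, 22.6 and 16.5 with high arginine, lower in low arginine (-0.46, SE 0.14, adjusted p = 0.015, not called without the filter on low values or without low or standard replicate 2). Locus 322, on a scaffold, names an HSR domain, found in SP100 nuclear body proteins, and stood at 14.3, 15.3 and 11.5 FPKM with low, 18, 17.9 and 18.8 with standard and 15.3, 16.1 and 16.2 with high arginine (-0.40, SE 0.09, adjusted p = 0.0024).

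Of the 165 loci with no domain, 64 fell and 26 rose, with a median of -0.19, where 31.9% of all tested rows were lower and 30.3% higher. On chromosome X locus 336 stood at 0.589, 0.654 and 0.714 FPKM with low, 5.79, 7.45 and 5.68 with standard and 5.34, 5.17 and 5.53 with high arginine, and its low arginine libraries were the lowest by far. This locus met the FPKM minimum only through standard and high arginine libraries. Locus 339, also on X and 126734 bases from its nearest annotated row, stood at 10.7, 10.8 and 9.81 FPKM with low, 29.5, 30.2 and 31.6 with standard and 29.9, 28 and 27.7 with high arginine (-1.46, SE 0.06, adjusted p = 2.2e-08). Locus 168 on chromosome 19 lies inside a RefSeq model of Hspa12a on the same strand, a heat shock protein family member, and stood at 0.177, 0.29 and 0.307 FPKM with low, 4.04, 3.56 and 3.05 with standard and 2.6, 2.2 and 1.97 with high arginine. Its low arginine group was again apart from both others, and it too met the minimum only through those.

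Locus 37 on chromosome 10, whose RefSeq window is printed above as Gm46220, stood at 1.26, 1.43 and 1.47 FPKM with low, 6.19, 5.44 and 6.00 with standard and 4.25, 5.6 and 5.65 with high arginine (-1.53, SE 0.09, adjusted p = 3.3e-07). Locus 66 on chromosome 11 lies tail to tail with Ppy, the pancreatic polypeptide gene, at 1869 bases, and stood at 2.67, 2.95 and 3.68 FPKM with low, 6.85, 8.11 and 8.22 with standard and 9.54, 9.8 and 7.85 with high arginine. It fell in low arginine (-1.09, SE 0.11, adjusted p = 9.3e-06), whereas Ppy was higher there (0.20, SE 0.07, adjusted p = 0.02).

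Of the 5 loci that met the FPKM minimum only through low arginine libraries, 4 are described here with no test. Locus 119 on chromosome 16 stood at 4.5, 6.2 and 5.34 FPKM with low, 0.511, 0.575 and 0.608 with standard and 0.482, 0.609 and 0.336 with high arginine. The low arginine libraries were all above the rest, with means of 5.35 ± 0.853 and 0.564 ± 0.0495 FPKM in low and standard arginine (SD, n = 3). Locus 210 on chromosome 3 stood at 5.55, 2.23 and 3.33 FPKM with low, 0.268, 0.474 and 0.464 with standard and 0.33, 0.347 and 0.46 with high arginine, with a wide spread in low arginine. Locus 5 on chromosome 1, RefSeq Gm35992 above, stood at 2.07, 2.82 and 4.11 FPKM with low, 0.256, 0.0988 and 0.365 with standard and 0.308, 0.579 and 0.171 with high arginine, from as few as 2 reads in a library. Locus 225 on chromosome 4 stood at 3.68, 2.2 and 2.6 FPKM with low, 0.433, 0.327 and 0.422 with standard and 0.33, 0.373 and 0.546 with high arginine. In each of the 4 the standard and high arginine groups overlapped.

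Among loci that rose was locus 35 on chromosome 1, at 4.84, 4.67 and 5.91 FPKM with low, 0.745, 1.12 and 1.19 with standard and 1.00, 1.56 and 1.64 with high arginine (1.61, SE 0.13, adjusted p = 2.2e-06), 11 bases tail to tail with the annotated row Gm37486. Locus 68 on chromosome 11 lies 599 bases head to head with the ubiquitin protease gene Usp34 and stood at 2.74, 2.53 and 3.81 FPKM with low, 0.899, 0.938 and 1.12 with standard and 0.929, 0.72 and 1.02 with high arginine (1.01, SE 0.12, adjusted p = 3.6e-05). Usp34 itself did not pass the threshold (0.28, SE 0.15, adjusted p = 0.13). The rises of locus 259 (0.95, SE 0.19, adjusted p = 0.0014) and locus 163 (0.76, SE 0.21, adjusted p = 0.0099) had a wider spread, with locus 259 at 4.14, 4.86 and 5.4 FPKM in low and 1.36, 1.87 and 2.98 in standard arginine and locus 163 at 3.88, 1.68 and 2.51 and 0.964, 0.894 and 1.55.

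Within 20 kb of each other lay 13 pairs formed by 23 loci. Both members were called in the same direction in low against standard arginine in 5 pairs and in opposite directions in 0. Neither was called in 3. Of all 12300 rows, 31.9% were lower and 30.3% higher in that comparison, and agreement within other pairs of rows was not counted. Of the 13 pairs, 4 overlap on opposite strands, where counting without strand would share reads. Of these, 3 are among the 5: locus 178 with locus 191 (-0.64 and -0.68), locus 195 with locus 205 (-0.56 and -0.54) and locus 328 with locus 338 (-0.87 and -0.42).

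The loci as a group took 0.245% to 0.252% of reads in the low, 0.312% to 0.350% in the standard and 0.297% to 0.328% in the high arginine libraries. Without locus 87 the shares were 0.242% to 0.248%, 0.262% to 0.299% and 0.265% to 0.295%. The low arginine libraries were below all others in both cases.

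High against standard arginine asks what an excess does. Of the 12300 rows, 0.309% changed, 0.138% higher and 0.171% lower. Of the 214 loci, 3 were lower and 0 higher by limma with Benjamini-Hochberg adjustment. The median difference was -0.05, against 0.01 over all rows. The differences, high minus standard, were those of locus 87 (-0.60, SE 0.08, adjusted p = 0.019), locus 340 (-0.84, SE 0.11, adjusted p = 0.018) and locus 181 (-0.55, SE 0.09, adjusted p = 0.04). All 3 were also called in low against standard arginine, which uses the same standard libraries.

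The envelope locus 87 had 105, 101 and 108 FPKM in high arginine, below its standard libraries and far above its low ones. On chromosome X, locus 340 (RefSeq Gm39529 above) stood at 1.12, 1.05 and 1.1 FPKM with low, 6.5, 8.11 and 6.48 with standard and 4.14, 2.93 and 3.38 with high arginine, so that both other groups were below the standard group (-1.94, SE 0.11, adjusted p = 1.5e-07 for low arginine). Locus 181, chr2:146219451-146221752, plus strand, stood at 3.51, 3.72 and 3.95 FPKM with low, 2.31, 2.62 and 2.67 with standard and 1.44, 1.15 and 1.66 with high arginine. Its 3 groups did not overlap and were ordered from low to high arginine, each lower than the last (0.42, SE 0.09, adjusted p = 0.0018 for low against standard arginine). With only the standard and high arginine libraries fitted, or with no filter on low values, 0 of the 3 calls remained. Of all rows, 0 were higher and 0 lower with only these libraries, and 4 and 2 of 27191 with no filter. None of the 3 calls held when standard replicate 2, high replicate 2 or high replicate 3 was left out. All rows then had 0 higher and 0 lower calls, except 1 higher without high replicate 2. The call of locus 181 was also lost without low replicate 2, low replicate 3, standard replicate 1, standard replicate 3 or high replicate 1.

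Locus 181 ends 168 bases upstream of Insm1 on the same strand. Insm1 encodes a zinc finger factor needed for endocrine cell development. Its mean was 114 ± 6.72 FPKM with low, 76.6 ± 6.4 with standard and 81.9 ± 2.09 with high arginine (SD, n = 3). Insm1 rose in low arginine (0.57, SE 0.07, adjusted p = 4.4e-05), as locus 181 did, but did not pass the threshold in high arginine (0.10, SE 0.07, adjusted p = 0.55).

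High against low arginine spans the whole range of supply and is also the direct test of whether both responses differ. Of all rows 61.5% were called, 32.3% higher in high arginine and 29.2% lower. Of the loci, 91 were higher and 39 lower, 60.7% in all, with a median of 0.20 against 0.01. Scaled to TPM, 78 loci were higher and 49 lower, and of all rows 3094 were higher and 4735 lower, against 3967 and 3594 as deposited. Of the 118 loci called in low against standard arginine, 104 were also called here, and these comparisons share the low arginine libraries. The largest difference, high minus low, was again that of locus 87 (3.31, SE 0.08, adjusted p = 7.9e-10). Locus 145 was higher in high than in low arginine (0.24, SE 0.08, adjusted p = 0.021), but this difference was -0.0038 and not called under quantile normalization. The call was also lost with TPM scaling (0.12), totals of rebuilt reads (0.12) or no filter on low values, and without low replicate 1, high replicate 2 or high replicate 3. On the falling side locus 90 differed by -1.68 (SE 0.18, adjusted p = 1.6e-05). Locus 181 differed by -0.97 (SE 0.09, adjusted p = 5.0e-06).

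Levels of nearest genes bear on whether a locus and its neighbour move as a unit. The nearest annotated row was itself tested for 91 loci, and in the other 122 cases it did not meet the FPKM rule. Of these 91 pairs, the locus was called in low against standard arginine in 46, the gene in 63 and both in 32. Of all 214 loci 55.1% were called, and of all 12300 rows 62.2%. Agreement in direction was not counted for other pairs of rows. The calls shared a direction in 18 pairs, 12 both lower and 6 both higher, and were opposite in 14. Across pairs, Pearson's r between the differences of locus and gene was 0.16 and Spearman's rho 0.19. These pairs share the same libraries and are not independent. For the 60 pairs within 1 kb, r was 0.22, and 13 of 22 pairs with both called shared a direction. For head to head pairs within 1 kb, 38 tested, r was 0.17, and 6 of 13 shared a direction.

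**Figure D5:**
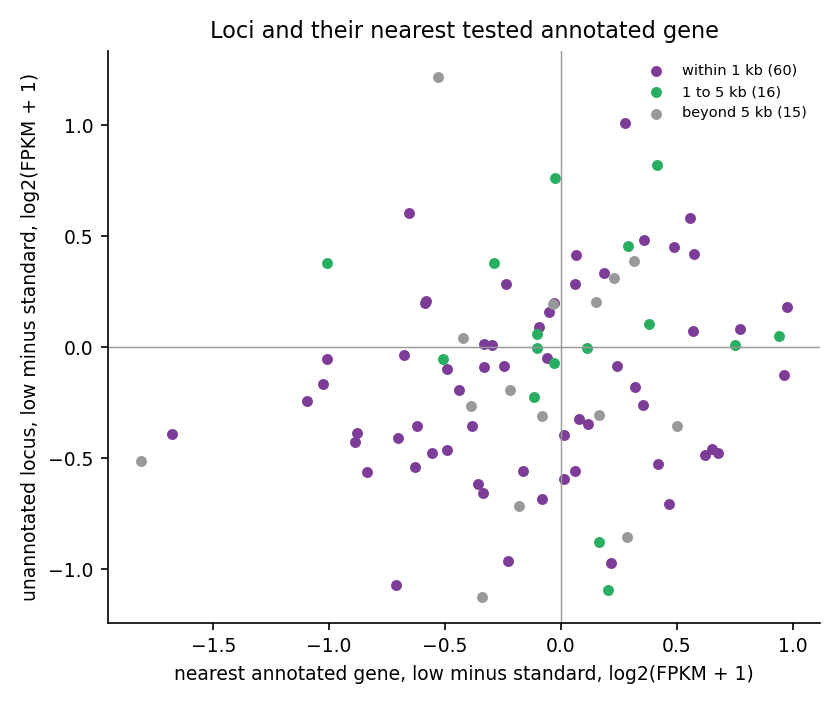
Difference between low and standard arginine in log2(FPKM + 1) for 91 unannotated loci (y axis) against that of the nearest annotated gene (x axis), coloured by distance. Points spread over all 4 quadrants, with 18 of 32 pairs in which both were called sharing a direction.

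Opposite changes occurred across very short distances. Head to head with Ggnbp2 at 22 bases, locus 62 stood at 2.33, 2.18 and 1.96 FPKM in low and 3.44, 3.35 and 3.36 in standard arginine and fell (-0.47, SE 0.10, adjusted p = 0.0018), whereas Ggnbp2 rose (0.68, SE 0.09, adjusted p = 9.1e-05). At 22 bases from Incenp, which encodes the inner centromere protein of the chromosomal passenger complex, locus 162 stood at 2.96, 3.15 and 3.22 FPKM in low and 1.92, 1.29 and 1.93 in standard arginine. It rose (0.61, SE 0.11, adjusted p = 7.9e-04) while Incenp fell (-0.65, SE 0.08, adjusted p = 3.1e-05). Likewise locus 177 fell (-0.71) where Qser1, at 1 base, rose (0.47), and locus 298 fell (-0.53) where Med26, a subunit of the Mediator complex, rose (0.42).

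Other pairs showed a large change in the gene and none detected in the locus. Nefm, a neurofilament gene, measured 98.6 ± 3.53 FPKM in low and 199 ± 0.501 in standard arginine (-1.01, SE 0.05, adjusted p = 1.3e-07). Its head to head neighbour locus 97 at 97 bases stood at 4.59, 4.41 and 4.28 FPKM with low, 4.93, 5.13 and 3.91 with standard and 4.25, 4.34 and 2.8 with high arginine, with overlapping groups (-0.05, SE 0.13, adjusted p = 0.73). On the opposite strand to locus 97 and overlapping it, locus 103 rose (0.38, SE 0.09, adjusted p = 0.003). Vars rose in low arginine (0.57, SE 0.08, adjusted p = 9.0e-05) next to locus 145, which did not pass the threshold.

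In a list of 39 ATF4 and amino acid response genes, of which 37 were tested and 30 rose and 1 fell in low arginine, 1 gene was the nearest row of a locus. This was Sesn2, a stress-induced sestrin, which rose (0.94, SE 0.07, adjusted p = 1.8e-06), while locus 237, 2465 bases upstream on the same strand, stood at 1.51, 2.38 and 1.16 FPKM with low, 0.861, 1.75 and 2.22 with standard and 1.56, 1.42 and 1.94 with high arginine (0.05, SE 0.20, adjusted p = 0.84). In a list of 31 beta cell genes, 9 higher and 15 lower, the nearest rows were Insm1 and Ptprn. Ptprn, an autoantigen of secretory granules, fell (-0.68, SE 0.09, adjusted p = 7.9e-05), while locus 4, 20 bases head to head with it, stood at 2.67, 3.33 and 3.01 FPKM with low, 2.94, 3.3 and 3.04 with standard and 1.91, 1.72 and 2.36 with high arginine and did not pass the threshold in low (-0.04, SE 0.09, adjusted p = 0.75) or high arginine (-0.46, SE 0.09, adjusted p = 0.074).

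Of 15 fatty acid synthesis genes, 14 tested and 13 lower, only Fads2, a desaturase, was nearest to a locus. It fell (-1.81, SE 0.08, adjusted p = 4.0e-08), and locus 166, 34559 bases away, stood at 0.899, 1.28 and 2.36 FPKM with low, 3.5, 1.49 and 2.76 with standard and 1.59, 1.73 and 2.09 with high arginine with overlapping groups (-0.51, SE 0.23, adjusted p = 0.075). Of the lists of 25 cholesterol, 21 glycolysis and 26 ER folding genes, 0 genes were the nearest row of a locus, although all 25 tested cholesterol genes were lower, as were 15 of 20 tested glycolysis genes and 20 of 26 ER folding genes. Mia3, an ER export factor, and locus 19, which overlaps it on the other strand, both fell (-0.63 and -0.54), and the strand setting is not known for this pair either.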

How the data were processed

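RNA of MIN6 cells in 3 media was sequenced, with 3 libraries per medium. The authors deposited FPKM values per gene, with each row's length, position and, for unannotated rows, Pfam domain text, per the file headers. CASAVA 1.8, HISAT2 2.0.5 and featureCounts 1.5.0-p3 are listed per the submitters' processing notes. How the unannotated rows were assembled and the strand setting of counting are not given in the sources used here. These notes name the build mm9, but 98.33% of 54495 shared gene IDs carry the GRCm38 positions of GENCODE M21, so coordinates are given as GRCm38. Unused per-sample columns numbered 0.

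The 12300 rows that reached FPKM 1 in 3 or more of 9 libraries were transformed to log2(FPKM + 1) and fitted by limma 3.58.1 (R 4.3.3) with a variance trend and group as the only term (6 residual degrees of freedom). P-values are two-sided and adjusted by Benjamini-Hochberg over all rows, called under 0.05 at any fold. Differences are on that scale, which understates the change of low rows. Reads were rebuilt from FPKM, length and the step size of each library. They came out whole within 0.01 reads in 100% of values, and served for depth, shares and a fit with voom weights. The depth behind a locus is its own number of reads. No pair of replicates agreed within sampling noise: chi-square divided by its degrees of freedom was 2.59 to 12.6. The procedure was tested on simulated data.

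Distance is the number of bases between nearer ends, strand ignored, and 0 for overlap. Sequences and gene starts are from RefSeq on GRCm38.p6. Samples were grouped by their labels. Of the marker genes, 1 is not reported here. The members, the gene lists and the rule for named loci were chosen with earlier results of these data known. That rule took the 5 highest loci, up to 8 rises and 8 falls per contrast with a mean of at least 2 FPKM in the higher group and no overlap, the called loci of high against standard arginine, loci at the threshold, the longest, the most remote and up to 3 per domain class. Loci named for their neighbour, overlap or RefSeq start were chosen after their values were seen. Deviations of same-numbered low and high arginine libraries correlated at 0.153 to 0.243 in all 3 pairs, so the numbers were taken to pair these groups, and the blocked fit is an alternative. In the other 6 pairs the correlations ran from -0.036 to 0.196, not all over 0.1. Alternatives covered the pseudocount, filter, scaling, libraries fitted, variance model, weights, replicate block, a 2-fold threshold, distance windows and each library left out.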

Additional observations from a re-analysis of the deposited data

How the results depend on the processing

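All alternatives were planned. Counts of loci called in low against standard arginine stayed within 1.5 times of 30 higher and 88 lower except when rows averaging under 5 FPKM were dropped, leaving 40 loci, 4 and 25 called, and with a 2-fold threshold, 7 and 21. All rows then had 2328 higher and 2816 lower of 7426, and at 2-fold 236 and 403 of 12300. For high against low arginine (91 and 39) these 2 settings gave 24 and 5, and 21 and 8, where all rows had 2884 and 2190, and 420 and 234. For high against standard arginine (0 and 3), the lower calls were 0 with no filter, 0 with only the 2 groups fitted and 0 at 2-fold. With rows averaging under 5 FPKM dropped there was 1. All rows had 4 higher and 2 lower with no filter, 0 and 0 with the 2 groups and 1 and 0 at 2-fold. With the low rows dropped they had 26 and 24 of 7426. Array weights gave 11 loci higher and 15 lower, where 713 and 610 of all 12300 rows were called. The cause was not tested. Leaving out each library gave 25 to 31 higher and 82 to 87 lower in low against standard, 0 to 1 and 0 to 3 in high against standard, and 77 to 91 and 35 to 40 in high against low arginine. A replicate block gave 29 and 89, 0 and 4, and 91 and 44. Loci within 5 kb of an annotated gene were 50 with only genes on the same strand and 44 of 109 at an FPKM of at least 2. Of the values of named loci under all alternatives, 2164 kept their side of the threshold, 81 lost the call, 19 gained it and 1 reversed. Differences called in neither fit were counted as kept whatever their sign. The reversed one was locus 145 in high against low arginine under quantile normalization (-0.0038). Depth limits the low loci, such as locus 5 and locus 171.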
